A study of Homo sapiens with 8 samples.

Results

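Peaks listed for the tumour suppressor p53 after doxorubicin were compared with those after DMSO in U2OS. This is a human osteosarcoma cell line with wild-type p53 per the labels. The members were all peaks of the authors' 2 lists, 3087 with doxorubicin and 2793 with DMSO, or 5880 of the 24535 peaks in the 4 lists of the series. Cells had received 0.6 µg/ml doxorubicin or 0.1% DMSO, with a time of 24 h, before chromatin immunoprecipitation with the p53 antibody DO-1 and sequencing (ChIP-seq). The other ChIP libraries, used here only for comparison, came from cells with no treatment and from cells given 10 µM Nutlin-3. There was 1 ChIP library per condition, so conditions could not be tested against each other, and the effect of a treatment cannot be told apart from a difference between libraries. In the labels, DMSO serves as control for Nutlin-3 and untreated cells serve as control for doxorubicin. They do not pair doxorubicin with DMSO. Nor do they give the solvent of doxorubicin.

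p53 is a transcription factor that binds DNA as a tetramer and activates genes of cell cycle arrest, apoptosis, DNA repair and its own degradation. In unstressed cells the ubiquitin ligase MDM2 keeps its level low, although part of its sites can be occupied. Doxorubicin is a topoisomerase II poison whose DNA breaks set off the kinases that release p53 from MDM2, while Nutlin-3 blocks the binding of MDM2 to p53 without damaging DNA. DMSO is a common solvent and is used as a vehicle control.

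Each list gave a chromosome, a start and an end on the human genome build hg18, with no height, score or read count, so the width of a peak is the only value it has. Widths came in steps of 20 bp, from 40 bp upwards. Peaks were not assigned to genes, p53 motifs or sequences, because no positions of genes on hg18 were used here. Gains and losses at known p53 target loci were therefore not analysed, and regions are given by their hg18 coordinates as deposited. A peak was called shared when a peak of the other list overlapped it by at least 1 bp. Intervals are exact 95% binomial intervals (Clopper-Pearson), which cover counting error only and treat peaks as independent.

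Fewer than 1 in 2 p53 peaks of either list had a counterpart in the other. Of the doxorubicin peaks, 1254 were overlapped by a DMSO peak, a share of 40.6% (38.9 to 42.4). Of the DMSO peaks, 1256 were overlapped by a doxorubicin peak, or 45.0% (43.1 to 46.8). The shares depended on how much overlap was asked for, with 22.9% and 25.3% under a reciprocal overlap of at least 50%. They were 18.3% and 21.8% when both lists were limited to peaks of at least 60 bp. That limit also takes 40 bp partners out of the other list, which lowers the shares by itself. In bases the lists had less in common than in peaks. The shared stretches came to 52.4 kb, which was 15.1% of the 347 kb covered by doxorubicin peaks and 23.0% of the 228 kb covered by DMSO peaks. Nearly all overlaps joined 1 peak with 1 peak, with 1246 such pairs among 1258 overlaps. Only 4 doxorubicin peaks met 2 DMSO peaks each, and 2 DMSO peaks met 2 doxorubicin peaks each.

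Some peaks missed each other by little. In 127 cases a doxorubicin and a DMSO peak adjoined, the end of the one being the start of the other. If ends belong to the peak, which the files do not state, these pairs share 1 bp and the shares become 44.7% for doxorubicin and 49.5% for DMSO. Both peaks were 40 bp wide in 60 of the 127 pairs, and in 57 pairs a single Nutlin-3 peak overlapped both. Beyond these, the doxorubicin list gained little with distance, from 46.7% of its peaks within 20 bp of a DMSO peak to 49.3% within 1000 bp. The DMSO list went from 51.7% to 59.97% over the same range. At the far end, 16.4% of doxorubicin peaks and 6.02% of DMSO peaks had no peak of the other list within 1000 kb, counting peaks on chromosomes where the other list had none.

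**Figure D1:**
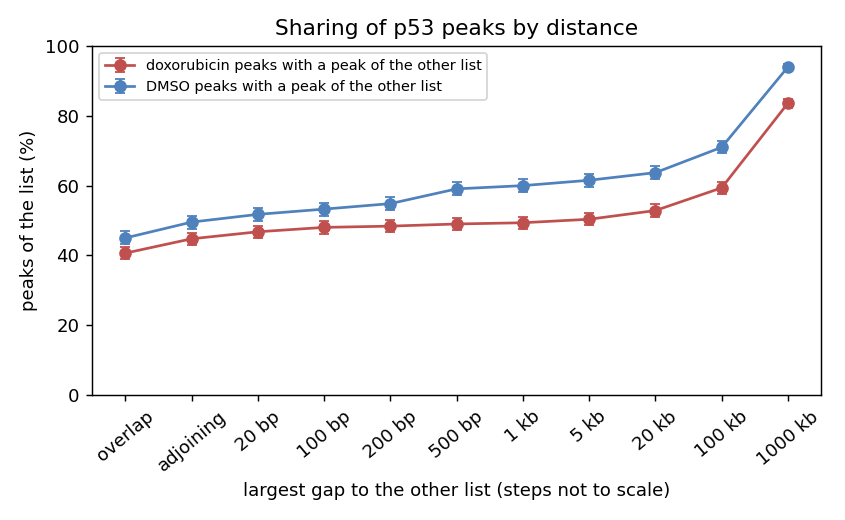
Percentage of the doxorubicin peaks (red) and of the DMSO peaks (blue) that have a peak of the other list within a given gap, from overlap to 1000 kb, with exact 95% binomial intervals as bars. The shares start at 40.6% and 45.0%, and between 100 and 500 bp the DMSO curve rises from 53.2% to 59.0% while the doxorubicin curve goes from 48.0% to 49.0%.

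The surplus of doxorubicin peaks lay in dense stretches, meaning groups of 5 or more peaks of one list in which neighbours are no more than 20 kb apart, and on chromosomes M and Y. The doxorubicin list had 34 such stretches on 14 chromosomes. They held 424 of its peaks (13.7%) and 17 DMSO peaks, and 28 of the 34 held 0 DMSO peaks. The DMSO list had 4 stretches with 28 of its peaks, and all 4 also held doxorubicin peaks, 12 in total. Chromosome Y carried 104 doxorubicin and 0 DMSO peaks, and chromosome M carried 2 and 0. Whether peaks there or in the dense stretches mark bound p53 was not tested, nor was the mapping of their reads. Setting aside the stretches of both lists and chromosomes M and Y removed 449 doxorubicin peaks, with 40.7% of the covered length of that list, and 36 DMSO peaks, with 2.30% of theirs. Of the 449 doxorubicin peaks 17 were shared (3.79%, 2.22 to 5.99).

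Elsewhere the 2 lists were nearly alike in size, with 2638 doxorubicin and 2757 DMSO peaks over 206 kb and 223 kb. The mean width there was 78.0 bp with doxorubicin and 80.8 bp with DMSO. These dispersed peaks were shared in 46.9% (45.0 to 48.8) for doxorubicin and 44.9% (43.1 to 46.8) for DMSO. The rise of the doxorubicin share from 40.6% is largely built into this division, because most stretches were defined by the density of doxorubicin peaks and DMSO had 0 peaks on chromosomes M and Y. Even among dispersed peaks, 1401 doxorubicin and 1518 DMSO peaks had no overlap with the other list.

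The 4 doxorubicin stretches with the most peaks, ranked after the lists had been seen, held 0 DMSO peaks each. On chromosome 16 from 44943311 to 44993031 there were 43 doxorubicin peaks, 30 untreated peaks and 0 from DMSO or Nutlin-3. On chromosome 21 from 9787811 to 9833811 there were 35 doxorubicin peaks, with a median width of 160 bp, and 0 from any other list. The next were on chromosome Y, from 11907131 to 11950071 with 29 doxorubicin, 12 untreated and 5 Nutlin-3 peaks, and from 57381631 to 57424511 with 26 doxorubicin, 6 untreated and 0 Nutlin-3 peaks. These are numbers of peaks within a stretch and not overlaps of single peaks. Stretches on chromosomes X and 2 followed with 23 doxorubicin peaks each. The one on chromosome X, from 30719691 to 30734431, also held 12 Nutlin-3 peaks and 0 from DMSO or untreated cells. Untreated peaks were present in 23 of the 34 stretches, 140 in all, and Nutlin-3 peaks in 12, 48 in all. The one on chromosome 2, from 132728411 to 132761131, was one of the 6 of 34 stretches with any DMSO peak and held 2 DMSO peaks.

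Peaks were also counted near the longest interval without peaks of each autosome, which was found from the 4 lists together. Dense stretches were kept in these counts, which may hold the same peaks again and are no separate observation. Within 2 Mb of that interval lay 331 doxorubicin and 68 DMSO peaks. Of these doxorubicin peaks 32 were shared (9.67%, 6.71 to 13.4), against 46.5% (44.5 to 48.4) of the 2572 autosomal doxorubicin peaks farther away. DMSO peaks were shared in 48.5% (36.2 to 61.0) near the interval and in 44.7% (42.8 to 46.6) farther away.

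Sharing by chromosome followed the same division. On chromosomes 1 to 22 and X, the share of doxorubicin peaks ranged from 21.9% on chromosome 21 (21 of 96 peaks) to 54.7% on chromosome 6 (75 of 137). The interval lay wholly below the 40.6% of the list on chromosomes 16 and 21, and wholly above it on chromosomes 6, 9 and 12. That 40.6% includes chromosomes M and Y, where 0 peaks were shared. Over autosomes alone the share was 42.3%, which the interval of chromosome 12 (41.6 to 58.4) includes. On chromosome 16, where 36 of 152 doxorubicin peaks were shared, the share was 23.7% (17.2 to 31.3). DMSO peaks ranged from 37.7% on chromosome 8 (57 of 151) to 58.3% on chromosome 21 (21 of 36), and for 0 of 23 chromosomes did the interval exclude the 45.0% of that list.

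Outside the dense stretches the chromosomes differed less. Much of this is built into the division, because most stretches were defined by the density of doxorubicin peaks. Intervals are also wider where fewer peaks remain. The doxorubicin share ranged from 39.1% on chromosome 20 to 55.9% on chromosome 6, and for 0 of the 23 chromosomes did the interval exclude the 46.9% of these peaks. On chromosome 21 21 of 42 peaks were shared (interval 34.2 to 65.8%) and on chromosome 16 35 of 88 were (39.8%, 29.5 to 50.8). Counts of peaks per chromosome were also unequal in the full lists. Chromosome 21 had 2.67 times as many doxorubicin as DMSO peaks, chromosome 16 had 1.97 times as many and chromosome X 1.63 times. Chromosome 6 was at the other end, with 137 doxorubicin and 171 DMSO peaks, a ratio of 0.801. Doxorubicin peaks were the more numerous on 13 of the 23 chromosomes and DMSO peaks on 10.

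**Figure D2:**
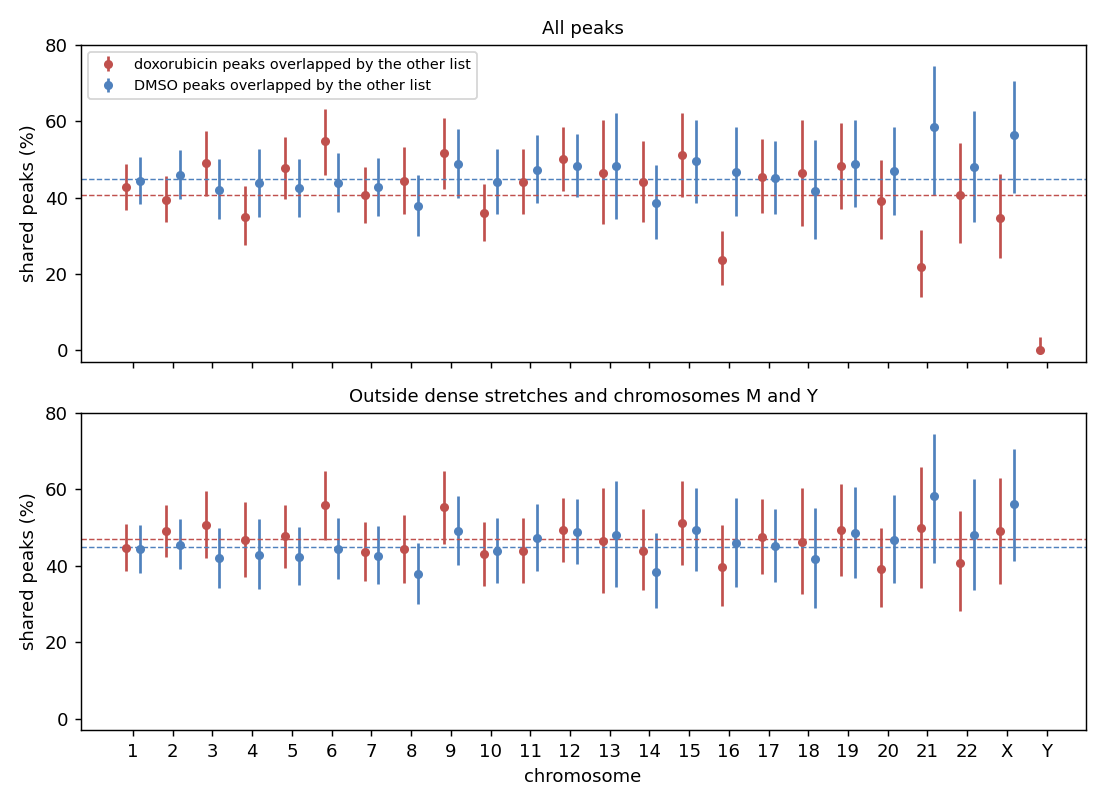
Share of doxorubicin peaks (red) and DMSO peaks (blue) overlapped by the other list on each chromosome, as percentages with exact 95% binomial intervals, over all peaks (top) and outside dense stretches and chromosomes M and Y (bottom). Dashed lines mark the share of each list over the peaks of that panel. The doxorubicin points of chromosomes 16 (23.7%) and 21 (21.9%) are low in the top panel, while their intervals in the bottom panel include its dashed line. Most stretches left out there were defined by the density of doxorubicin peaks, and fewer peaks remain.

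Neither treatment gave the wider peak at most shared sites. Among the 1246 pairs of 1 doxorubicin and 1 DMSO peak, the doxorubicin peak was wider in 408 (32.7%), as wide in 405 (32.5%) and narrower in 433 (34.8%). The intervals were 30.1 to 35.4 for wider and 32.1 to 37.5 for narrower. The median width was 40 bp in both lists and the median difference was 0 bp, with quartiles at -20 and 20 bp. Means were 74.8 bp with doxorubicin and 79.9 bp with DMSO, a difference of -5.12 bp. The median difference was 0 bp on each of the 23 chromosomes, 14 of which had more narrower than wider pairs. Larger changes were found in both directions. The doxorubicin peak was at least 2 times as wide in 195 pairs (15.7%) and the DMSO peak in 251 (20.1%). Counting only differences over 20 bp, the doxorubicin peak was the wider one in 236 pairs (18.9%) and the DMSO peak in 296 (23.8%). Widths were within 1 step of 20 bp of each other in 714 pairs (57.3%).

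The width of a site in one list said little about its width in the other. Across the 1246 pairs, Spearman's rho of the widths was 0.06, and Pearson's r of the log2 widths was 0.09. These describe sites of 2 libraries on a coarse grid where 337 pairs were 40 bp in both. Spearman's rho was 0.08 for 1945 pairs of doxorubicin and Nutlin-3 peaks and 0.23 for 1950 pairs of DMSO and Nutlin-3 peaks. Doxorubicin peaks were 40 bp wide at 52.4% of the sites where the DMSO peak was 40 bp, and still at 44.8% of the 29 sites where it was at least 300 bp. Sites chosen for a wide peak in one list thus had a narrower one in the other, whichever list was used to choose. Where the DMSO peak was 200 to 280 bp wide, doxorubicin was narrower in 57 of 62 pairs, with a median difference of -160 bp. Where the doxorubicin peak was 200 to 280 bp wide, it was the wider one in 56 of 59 pairs, with a median difference of 160 bp. A class chosen by one of the compared widths fixes much of this direction, so it is no sign of a change with treatment.

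**Figure D3:**
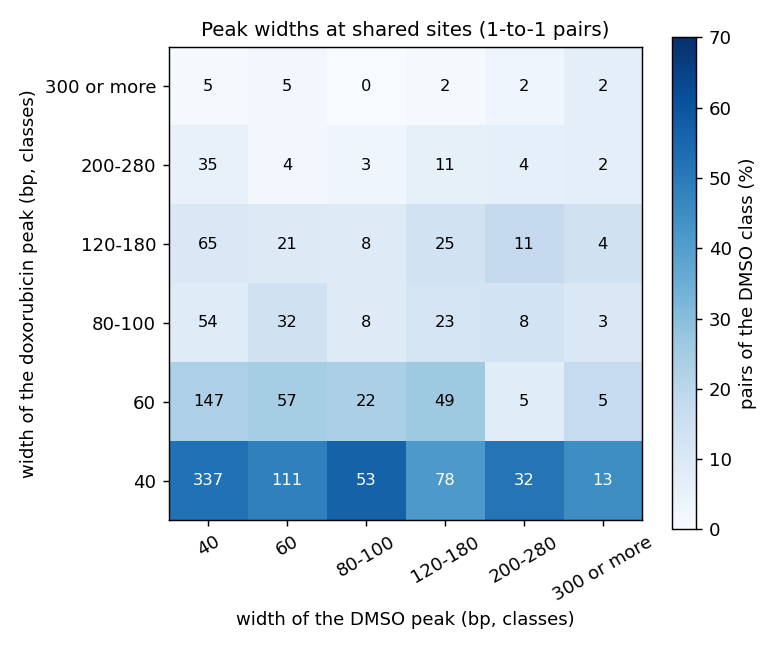
Number of 1-to-1 shared pairs by the width class of the DMSO peak (horizontal, bp) and of the doxorubicin peak (vertical, bp), with the shade giving the percentage within each DMSO class. In every DMSO class the most frequent doxorubicin width is 40 bp, with 337 of 643 pairs in the first column and 13 of 29 in the last.

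The bounds of the paired peaks were arranged in several ways. Midpoints were a median of 20 bp apart, a distance that the overlap of such narrow peaks limits by itself. Bounds were staggered in 482 pairs (38.7%). The doxorubicin peak lay inside the DMSO peak in 318 (25.5%), the DMSO peak lay inside the doxorubicin peak in 280 (22.5%), and bounds were the same in 166 (13.3%). Of the 166 identical peaks, 150 were 40 bp wide and 14 were 60 bp wide, with 1 of 140 bp and 1 of 160 bp.

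The shared percentage did not rise or fall steadily with width. Among dispersed doxorubicin peaks it was 50.7% (47.9 to 53.6) at 40 bp, 43.0% (39.2 to 46.8) at 60 bp, 53.2% (43.4 to 62.8) at 200 to 280 bp and 40.9% (26.3 to 56.8) at 300 bp or more, with 47.4% and 39.1% at 80 to 100 and 120 to 180 bp. Dispersed DMSO peaks were shared in 48.6% (45.9 to 51.3) at 40 bp, 38.9% (34.9 to 42.9) at 60 bp, 37.4% (31.3 to 43.8) at 80 to 100 bp and 47.5% (34.6 to 60.7) at 300 bp or more, with 46.0% and 45.5% at 120 to 180 and 200 to 280 bp. Among dispersed peaks of both lists, then, 40 bp peaks were shared more often than 60 bp peaks, with intervals that did not overlap. With dense stretches kept, the doxorubicin intervals did overlap, at 46.7% (44.0 to 49.4) for 40 bp and 41.0% (37.3 to 44.7) for 60 bp. Those of DMSO did not. Over all peaks, only 20 of the 203 peaks that were 300 bp or wider with doxorubicin were shared (9.85%, 6.12 to 14.8), and 159 of these 203 belonged to dense stretches or to chromosomes M and Y. DMSO peaks of that width were shared in 31 of 66 cases (47.0%, 34.6 to 59.7).

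Among the widest shared sites, ranked by the narrower of their peaks, the first lay in a dense stretch on chromosome 2. There the doxorubicin peak ran from 132748931 to 132750231 (1300 bp) and the DMSO peak from 132749711 to 132750051 (340 bp), and an untreated peak but no Nutlin-3 peak overlapped the former. It was also the pair with the largest widening, by 960 bp. The next was on chromosome 12, with doxorubicin from 57721111 to 57721451 (340 bp) and DMSO from 57721291 to 57721671 (380 bp). The third was on chromosome 22, with doxorubicin from 36158191 to 36158471 (280 bp) and DMSO from 36158151 to 36158631 (480 bp). Both of these were found with Nutlin-3 and not in untreated cells, and the remaining 2 of the first 5 lay on chromosomes 1 and 2.

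Single sites differed in width by over 300 bp in either direction. On chromosome 14 a doxorubicin peak from 20289751 to 20290171 (420 bp) met a DMSO peak of 40 bp from 20290111 to 20290151. On chromosome 22 the doxorubicin peak spanned 420 bp as well, from 26445471 to 26445891, over a DMSO peak of 40 bp from 26445651 to 26445691. The largest narrowing, by 580 bp, was on chromosome 6, with 620 bp for the DMSO peak, from 151219931 to 151220551, and 40 bp for the doxorubicin peak, from 151220171 to 151220211. Next were sites on chromosomes 3 and 8 with a DMSO peak of 500 bp and a doxorubicin peak of 40 bp. The chromosome 3 peaks ran from 20094891 to 20095391 with DMSO and from 20094991 to 20095031 with doxorubicin. Of the 5 sites with the largest widening 4 were in the Nutlin-3 list, as were 4 of the 5 with the largest narrowing. Nutlin-3 overlapped 89.9% of all shared doxorubicin peaks and 91.2% of all shared DMSO peaks, so these counts do not set the sites apart.

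The DMSO list had a further peak beside a shared site more often than the doxorubicin list did, though at a minority of sites. At a gap of 101 to 500 bp from the nearest peak of the other list lay 162 DMSO peaks (5.80% of the list) and 30 doxorubicin peaks (0.972%). Closer gaps are mutual, so each such pair counts once in both lists and the numbers below 101 bp, 231 and 228, are bound to be alike. Of the 162 flanking DMSO peaks, 136 (84.0%) stood beside a doxorubicin peak that overlapped another DMSO peak. Of the 30 flanking doxorubicin peaks, 18 stood beside a shared DMSO peak. The median width was 60 bp in both sets, and a Nutlin-3 peak overlapped 69 of the 162 (42.6%) and 15 of the 30. Over all peaks that were not shared, Nutlin-3 overlapped 53.5% with DMSO and 45.4% with doxorubicin. Among the dispersed ones it overlapped 53.5% and 57.7%. The smallest gap between neighbouring peaks of one list was 120 bp with DMSO, 180 bp with doxorubicin and 60 bp with Nutlin-3. The sources used here do not say whether settings of the peak caller differed between the lists, and their part in the number of flanking peaks was not tested.

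Merging the peaks of both lists that were up to 500 bp apart gave 4009 sites. Of these, 1461 (36.4%) held peaks of both lists, 1422 held doxorubicin peaks alone and 1126 DMSO peaks alone. At the 1461 common sites DMSO had more peaks than doxorubicin in 142 (9.72%, 8.25 to 11.4) and fewer in 22 (1.51%, 0.946 to 2.27). Among dispersed sites these counts were 136 and 16 of 1445. Nutlin-3 had at least 2 peaks at 80 of these 136 sites (58.8%, 50.1 to 67.2), at 4 of the 16 sites with more doxorubicin peaks (7.27 to 52.4%), and at 11 of the 1279 dispersed sites with a single peak in each list (0.860%, 0.430 to 1.53). Sites with several peaks also span more bases, so they have more room for further peaks. Many of the flanking peaks described above are counted again in the merged sites, which are therefore no separate observation.

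**Figure D4:**
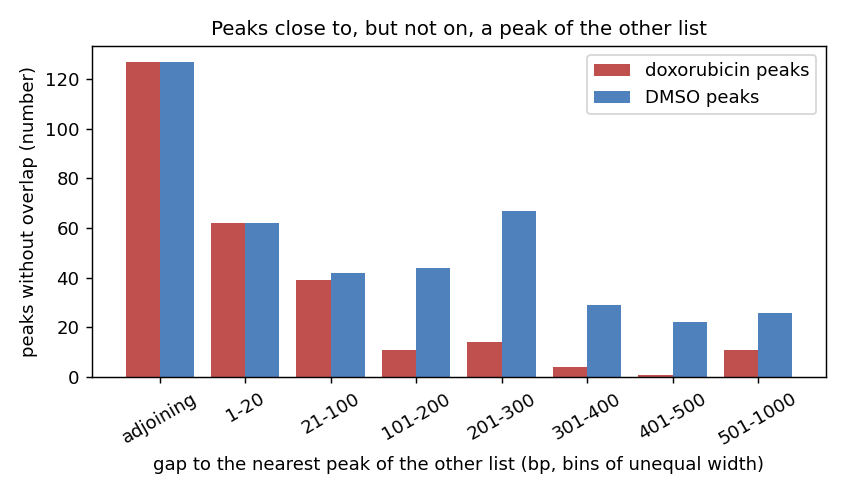
Number of doxorubicin peaks (red) and DMSO peaks (blue) that do not overlap the other list, by the gap in bp to its nearest peak, in bins of unequal width. Both lists have 127 adjoining peaks and 62 at 1 to 20 bp, while at 201 to 300 bp there are 67 DMSO and 14 doxorubicin peaks.

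The stretch with the most DMSO peaks lay on chromosome 6, from 36742591 to 36758811. It was picked for that number, so its surplus of DMSO over doxorubicin peaks largely follows from the choice and is an example only. It is dense in both lists and thus not among the dispersed sites. It held 11 DMSO peaks, of which 4 were shared, and 5 doxorubicin peaks, of which 4 were shared. The fifth doxorubicin peak, from 36753091 to 36753131, began where a DMSO peak, from 36753051 to 36753091, ended. The widest DMSO peaks of the stretch were from 36756091 to 36756331 (240 bp) and from 36753691 to 36753871 (180 bp). Both had no doxorubicin peak and lay inside Nutlin-3 peaks, of 440 bp and 620 bp. Its doxorubicin peaks were all 40 or 60 bp wide.

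**Figure D5:**
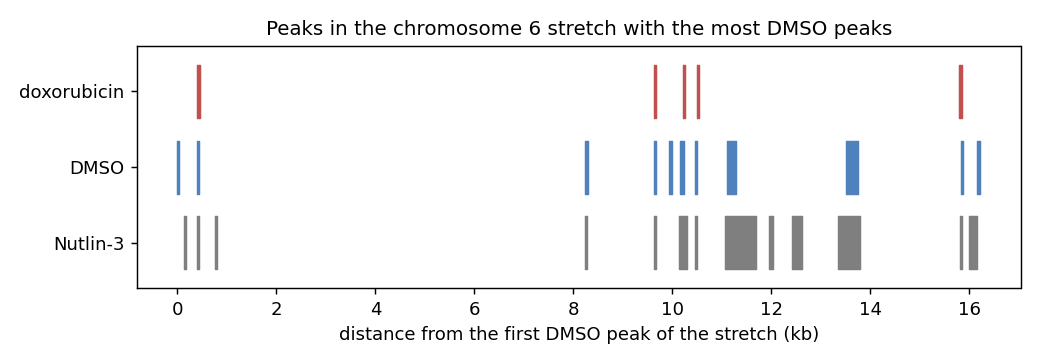
Peaks of the doxorubicin (red), DMSO (blue) and Nutlin-3 (grey) lists in the stretch of chromosome 6 with the most DMSO peaks, by distance in kb from the start of its first DMSO peak, with narrow peaks drawn slightly wider than scale so that they can be seen. Doxorubicin has 5 peaks, DMSO 11 and Nutlin-3 13, and the widest DMSO peaks, of 180 and 240 bp, have none from doxorubicin.

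Peaks common to both conditions were mostly in the Nutlin-3 list too. Of the 1256 shared DMSO peaks, 1145 (91.2%, 89.5 to 92.7) overlapped a Nutlin-3 peak, and of the 1537 others 822 did (53.5%, 51.0 to 56.0). Over all doxorubicin peaks the shares were 89.9% (88.1 to 91.5) of the 1254 shared and 45.4% (43.1 to 47.7) of the 1833 not shared. Among dispersed peaks that were not shared they were 57.7% (55.1 to 60.3) of 1401 with doxorubicin and 53.5% (50.9 to 56.0) of 1518 with DMSO, so the order of the lists depended on the dense stretches. Untreated cells, the control that the labels give for doxorubicin, held fewer. Their peaks overlapped 7 of the 1254 shared (0.558%, 0.225 to 1.15) and 164 of the 1833 other doxorubicin peaks (8.95%, 7.68 to 10.3), and 4 of the 1256 shared (0.318%) and 2 of the 1537 other DMSO peaks (0.130%). Among dispersed doxorubicin peaks, 5 of 1237 shared (0.404%, 0.131 to 0.941) and 45 of 1401 not shared (3.21%, 2.35 to 4.27) overlapped an untreated peak. In no other list were 845 doxorubicin peaks (27.4%) and 714 DMSO peaks (25.6%), of which 550 and 705 were dispersed. The Nutlin-3 list has 18159 peaks and the untreated list 496, so the former had far more chances to overlap. At 1044 sites 1 peak of each of the 3 lists met, and bounds were the same as in Nutlin-3 for 254 DMSO and 163 doxorubicin peaks.

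Dispersed peaks that were not shared had a median width of 60 bp in both lists, with means of 80.9 bp for doxorubicin and 81.6 bp for DMSO. At 300 bp or more there were 26 with doxorubicin and 32 with DMSO. Only by rank were the 5 widest of these peaks with doxorubicin longer than the 5 widest with DMSO. The first, on chromosome 18 from 97311 to 99771 (2460 bp), was overlapped by an untreated peak, and the nearest DMSO peak was 306 kb away. The second, on chromosome 2 from 240293631 to 240294411 (780 bp), was also found with Nutlin-3. The third, on chromosome 2 from 161844491 to 161845211 (720 bp), was in no other list. The nearest DMSO peaks to the latter 2 were 664 kb and 443 kb away, and over the 5 widest doxorubicin peaks of this kind the distance ranged from 99.5 kb to 664 kb. With DMSO the widest peak, of 700 bp, was on chromosome 15 from 61235351 to 61236051. Peaks of 580 bp on chromosome 22, from 25834531 to 25835111, and of 560 bp on chromosome 8, from 29686651 to 29687211, came next. Their nearest doxorubicin peaks were 440 bp, 14.5 kb and 2.56 kb away, and those of the other 2 of the 5 were 754 kb and 535 kb away. Nutlin-3 overlapped 4 of the 5 widest DMSO peaks of this kind and 1 of the 5 widest doxorubicin peaks, while untreated cells overlapped 0 and 3.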

How the data were processed

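The authors deposited 1 list of peaks per ChIP library, whose values are positions (chromosome, start, end) on hg18, per the submitters' processing notes, which also name CASAVA and Bowtie 0.12.2. No peak caller, threshold, filter or use of the inputs is given in the sources used here. Read depth is unknown. Lists were compared with Python 3.11.15 (numpy 2.4.6, scipy 1.17.1) and checked with bedtools 2.31.1, taking ends to lie outside the peak. The overlap code was tested on 1000 simulated peaks with doxorubicin widths, of which 5%, 30% or 70% were placed on DMSO peaks, and it found 5%, 30% and 70%.

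The comparison, lists and definitions were chosen with earlier results of these data known. Named by rule were the 5 widest shared pairs, the 5 with the largest widening and narrowing, and the 5 widest dispersed peaks of each list alone, with the leading ones given in full. The dense stretches and sites described singly were picked by their numbers of peaks. Alternatives were other definitions of sharing, other peak sets and a width minimum. The planned gene lists (p53 targets in arrest, apoptosis, feedback, repair, metabolism, matrix and the p53 family, with control lists) gave no result, since no gene positions on hg18 were used here.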

Additional observations from a re-analysis of the deposited data

How the results depend on the processing

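No paired analysis was possible because each condition had 1 ChIP library. For the same reason no replicate could be left out, and the alternatives at target loci were not run. Of 25 alternatives, 12 stayed within the interval of the value reported and 13 moved, 7 up and 6 down. A looser definition raises the shares and a stricter one lowers them by construction. With a reciprocal overlap of at least 50%, 22.9% of doxorubicin and 25.3% of DMSO peaks were shared. Within 1000 bp these were 49.3% and 59.97%, and with adjoining peaks counted 44.7% and 49.5%. With peaks of at least 60 bp in both lists they were 18.3% and 21.8%. When peaks of a list up to 500 bp apart were merged, an alternative added after the data were seen, they were 43.2% and 48.1%. Without dense stretches and chromosomes M and Y the doxorubicin share was 46.9%, the only setting in which it exceeded the DMSO share, largely because the stretches were mostly defined by doxorubicin peaks. The share of pairs wider with doxorubicin was 22.1% under the reciprocal overlap and 18.9% when only differences over 20 bp counted. The median width difference was 0 bp under each alternative run for it.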
